A study of Mus musculus with 9 samples.

Results

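Ubb, a gene that encodes ubiquitin as a chain of linked copies, was followed through single-nucleus RNA counts of the mouse brain. It was found by its symbol in the gene list of the count tables, as 1 of 31053 genes listed there. Ubb was selected on these same measurements, because its counts in named cell classes differed between the groups. Its levels and fold changes are therefore given as a description, with no test, and tests are given only for other genes. The libraries came from pooled cortex and hippocampus of male wild-type C57BL/6 mice, 1 library per mouse. Young mice given AAV-EGFP, aged mice given AAV-EGFP and aged mice given AAV-B3GNT3 formed 3 groups of 3 libraries. All mice, controls included, received a virus by retro-orbital injection 8 weeks before the tissue was taken. The AAV used the PHP.V1 capsid and an endothelial promoter built from Cldn5 sequence, so the transgene was directed to brain endothelial cells. It carried EGFP alone or EGFP linked to B3GNT3, a glycosyltransferase of the mucin-type O-glycan pathway. Nuclei were taken from frozen tissue and sorted as Hoechst-positive singlets. The ageing comparison sets aged AAV-EGFP against young AAV-EGFP, and the treatment comparison sets aged AAV-B3GNT3 against aged AAV-EGFP. By the paper's account, aged animals came from the National Institute on Aging and young ones from Jackson Laboratories. In the ageing comparison, age and supplier therefore cannot be told apart. Both comparisons use the same aged AAV-EGFP libraries, so their directions are not independent of each other.

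Ubiquitin is a small protein that is attached to other proteins and marks them for the proteasome, for sorting or for signalling. Mammals make it only as a precursor. Ubb encodes ubiquitin copies in a row, while Rps27a encodes a single copy fused to a ribosomal protein. Deubiquitinating enzymes cut the precursors into monomers, an E1 enzyme activates them, E2 enzymes carry them, and E3 ligases select the target. Ubb is known as a stress-inducible gene and Rps27a as one that follows ribosome production. In the brain, Ubb is known as an important source of the ubiquitin pool of neurons.

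In the GENCODE annotation of GRCm38, the build of the count tables, Ubb (ENSMUSG00000019505) lies on chromosome 11 at 62551171 to 62553213, plus strand. Its transcript Ubb-201 is 1499 bases long in 2 exons, and no other annotated gene overlaps it. The coding part lies whole in the second exon and holds 4 ubiquitin units of 228 bases each, which are shown here because the near-identity of the units bears on what a read can be assigned to. Capitals mark each base that differs from unit 1, which lies at chr11:62552146-62552373 on the plus strand. The following units continue without a gap to base 62553057, and the sequences were read from the GENCODE transcript.
unit 1: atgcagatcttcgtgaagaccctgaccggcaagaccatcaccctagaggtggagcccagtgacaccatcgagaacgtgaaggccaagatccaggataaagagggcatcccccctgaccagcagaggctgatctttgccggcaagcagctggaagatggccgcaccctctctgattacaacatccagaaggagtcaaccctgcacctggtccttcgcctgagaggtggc
unit 2: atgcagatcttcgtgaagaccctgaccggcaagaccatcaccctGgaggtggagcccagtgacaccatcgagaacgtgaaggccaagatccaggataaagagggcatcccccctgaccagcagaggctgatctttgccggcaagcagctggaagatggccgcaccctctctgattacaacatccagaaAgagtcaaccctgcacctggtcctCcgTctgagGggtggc
unit 3: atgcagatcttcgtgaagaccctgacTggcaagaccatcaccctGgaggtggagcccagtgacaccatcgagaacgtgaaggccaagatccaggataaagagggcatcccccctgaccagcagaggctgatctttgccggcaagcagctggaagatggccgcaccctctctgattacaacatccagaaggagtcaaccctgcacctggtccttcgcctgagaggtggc
unit 4: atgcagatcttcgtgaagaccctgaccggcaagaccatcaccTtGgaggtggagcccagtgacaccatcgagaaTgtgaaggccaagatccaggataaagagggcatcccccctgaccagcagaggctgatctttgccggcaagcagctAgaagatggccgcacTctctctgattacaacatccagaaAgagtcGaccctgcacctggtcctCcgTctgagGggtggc
The units differed from unit 1 at 5, 2 and 10 bases, and any pair of the 4 was between 95.6% and 99.1% identical. Of the 1410 stretches of 90 bases in Ubb-201, 764 (54.2%) also occurred in a transcript of Gm1821, annotated as a transcribed processed pseudogene, which the count tables do not list. A further gene, Gm8797, shared 269 of them, and it was listed with 208 UMIs over all libraries against 22226 for Ubb. In the part after the coding end, which is 150 bases long and nearest to the end from which these libraries are primed, 27 stretches were shared. The Ubb counts are therefore uncertain to the extent that reads from these copies were assigned to Ubb or left out.

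The 250 bases before the annotated Ubb start are shown because heat shock genes are set beside Ubb further on. They lie at chr11:62550921-62551170, plus strand, in the RefSeq sequence of GRCm38.p6, and the capitals mark the CCAAT motif.
Ubb upstream: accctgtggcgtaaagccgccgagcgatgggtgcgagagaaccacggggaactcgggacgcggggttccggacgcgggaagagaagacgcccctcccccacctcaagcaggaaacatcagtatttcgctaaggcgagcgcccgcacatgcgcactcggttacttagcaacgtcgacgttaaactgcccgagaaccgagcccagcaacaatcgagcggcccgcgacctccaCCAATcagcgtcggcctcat
CCAAT, searched on both strands, was found once, beginning 20 bases before the start, and 33.9% of the 32851 promoters in the table hold it in the same window. GAANNTTC, a core of the heat shock element that reads the same on both strands, was not in this window, and it occurs in 6.69% of promoters. The core in its other phase, TTCNNGAA, was not in it either and occurs in 7.17%. The GC box GGGCGG was not found on either strand and occurs in 32.7% of promoters. A match or its absence is a description of these letters only.

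The tables held 77823 barcodes, 6331 to 10264 per library, with 47332047 to 79964605 UMIs per library. Any pair of libraries shared 7 to 37 barcodes, out of 77081 different ones. After limits on genes and mitochondrial reads and removal of marked doublets, 70410 nuclei remained, of which 64092 fell into 8 classes named by marker genes and 6318 stayed unnamed. One of the inhibitory clusters, of 3461 nuclei, was led by Drd2, Rarb and Rgs9, which are known from projection neurons of the striatum. Brain endothelial cells passed on 6 of 6 markers. Counts of a class were summed per library and scaled to CPM with TMM factors, which correct the library totals for composition. Mouse B3gnt3 had 11 to 16 UMIs in the aged AAV-B3GNT3 libraries and 5 to 17 in the 6 others. These counts do not show the transgene, and whether the construct can be counted as this gene is not given in the sources used here. At the protein level, the paper reports more B3GNT3 staining in isolated microvessels after AAV-B3GNT3 than after AAV-EGFP in aged mice.

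Ubb was higher in all 3 aged AAV-EGFP libraries than in each of the 6 other libraries, and this held in each of the 8 classes. As a ratio of group means, aged AAV-EGFP was 2.24 to 3.09 times the young AAV-EGFP mean and 2.55 to 3.80 times the aged AAV-B3GNT3 mean. The levels in aged AAV-B3GNT3 overlapped those in young AAV-EGFP in 7 classes and lay below them in oligodendrocyte precursors. The plot of Ubb level by cell class and library shows the 72 values behind these statements.

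**Figure D1:**
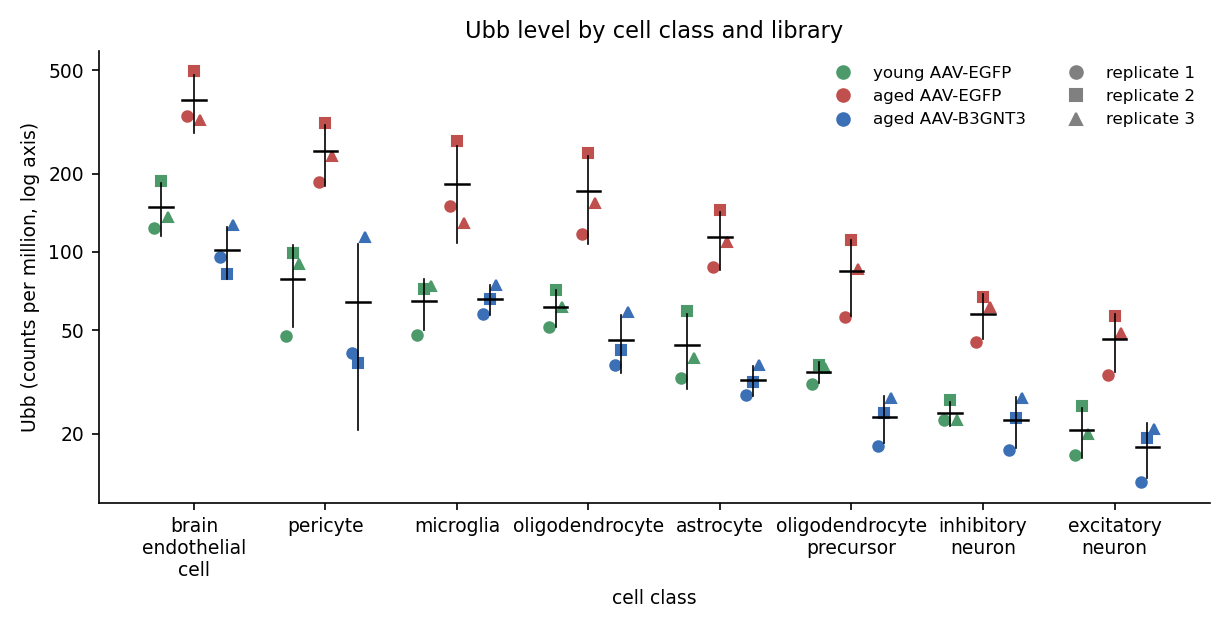
Ubb in CPM (log axis) in 8 cell classes, with 1 point per library, colour for the group, shape for the replicate, and a bar for the mean ± SD of 3 libraries. The red aged AAV-EGFP points lie above all green and blue points of the same class, and brain endothelial cells are highest in every group.

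Brain endothelial cells, the class the virus was directed to, carried the most Ubb. The young AAV-EGFP libraries gave 123, 188 and 137 CPM, the aged AAV-EGFP libraries 334, 496 and 323 CPM, and the aged AAV-B3GNT3 libraries 95.5, 82.0 and 127 CPM. The lowest aged AAV-EGFP library was well above the highest of the others. In this class 16 to 53 Ubb UMIs stood behind each value, from 44 to 112 nuclei. Pericytes, the mural cells of the capillaries, had 47.4, 99.1 and 90.1 CPM in the young AAV-EGFP libraries, 186, 313 and 234 CPM in those of aged AAV-EGFP and 41.0, 37.2 and 114 CPM in those of aged AAV-B3GNT3. Here the third aged AAV-B3GNT3 library was above all young ones, and the group means of young AAV-EGFP and aged AAV-B3GNT3 (78.9 ± 27.6 and 64.2 ± 43.5 CPM, SD, n = 3) differed by less than the spread.

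Among glia, microglia had 48.0, 71.8 and 73.8 CPM in the young AAV-EGFP libraries, 150, 267 and 129 CPM in those of aged AAV-EGFP and 57.6, 65.7 and 74.6 CPM in those of aged AAV-B3GNT3. The second aged AAV-EGFP library stood highest, as it did in every class. Oligodendrocytes, the myelinating cells, had 51.6, 71.4 and 61.5 CPM in the young AAV-EGFP libraries, 118, 241 and 154 CPM in those of aged AAV-EGFP and 36.7, 41.9 and 58.6 CPM in those of aged AAV-B3GNT3. Astrocytes had 32.7, 59.5 and 38.9 CPM in the young AAV-EGFP libraries, 87.3, 145 and 110 CPM in those of aged AAV-EGFP and 28.1, 31.4 and 36.6 CPM in those of aged AAV-B3GNT3. In both classes the aged AAV-EGFP libraries were separate from the rest, with a gap between the lowest of them and the highest other library. Oligodendrocyte precursors, the dividing glia that replace oligodendrocytes, had 30.9, 36.7 and 35.8 CPM in the young AAV-EGFP libraries, 56.2, 111 and 85.6 CPM in those of aged AAV-EGFP and 17.9, 24.0 and 27.4 CPM in those of aged AAV-B3GNT3. This was the class in which the 3 groups were fully separated.

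Neurons had the lowest levels. Inhibitory neurons had 22.5, 26.9 and 22.5 CPM in the young AAV-EGFP libraries, 45.1, 66.8 and 61.3 CPM in those of aged AAV-EGFP and 17.3, 23.1 and 27.4 CPM in those of aged AAV-B3GNT3. Excitatory neurons had 16.6, 25.5 and 19.9 CPM in the young AAV-EGFP libraries, 33.6, 56.5 and 48.7 CPM in those of aged AAV-EGFP and 12.99, 19.3 and 20.9 CPM in those of aged AAV-B3GNT3. Both neuron classes gave the same picture as the glia at a lower level, with 125 or more Ubb UMIs in each library. The nuclei of the unnamed clusters, summed, had 34.9 to 51.1 CPM in the young AAV-EGFP libraries, 62.7 to 155 in those of aged AAV-EGFP and 33.7 to 51.6 in those of aged AAV-B3GNT3, on raw totals. Over all barcodes, without any filter or class, Ubb was 24.2 to 31.3 CPM in the young AAV-EGFP libraries and 43.9 to 74.2 in those of aged AAV-EGFP. It was 19.5 to 29.1 CPM in those of aged AAV-B3GNT3, so the separation was also seen without naming classes. Most of these UMIs are those of the classes, so this is not separate support.

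The order of the classes was the same in young and aged AAV-EGFP mice. It ran from brain endothelial cells over pericytes, microglia, oligodendrocytes, astrocytes, oligodendrocyte precursors and inhibitory neurons to excitatory neurons. In aged AAV-B3GNT3, microglia (65.9 ± 8.52 CPM) and pericytes (64.2 ± 43.5 CPM) changed places, with overlapping libraries. Brain endothelial cells did not overlap the class next below them by mean in any group, but in aged AAV-B3GNT3 1 pericyte library, at 114 CPM, lay above 2 of the 3 endothelial libraries. Of the other neighbours in the order, the libraries of oligodendrocyte precursors and inhibitory neurons did not overlap in young AAV-EGFP, nor did those of oligodendrocytes and astrocytes, or astrocytes and oligodendrocyte precursors, in aged AAV-B3GNT3. All other neighbours overlapped.

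On the log2 scale of the fitted model, the difference in Ubb between aged and young AAV-EGFP was 1.16 ± 0.22 (SE) in excitatory and 1.27 ± 0.18 in inhibitory neurons, 1.38 ± 0.22 in astrocytes and 1.48 ± 0.25 in oligodendrocytes. It was 1.28 ± 0.23 in oligodendrocyte precursors, 1.52 ± 0.28 in microglia, 1.36 ± 0.28 in brain endothelial cells and 1.75 ± 0.35 in pericytes. No difference between classes was tested. In the treatment comparison the log2 fold change was -1.38 ± 0.22 in excitatory and -1.35 ± 0.18 in inhibitory neurons, -1.84 ± 0.23 in astrocytes and -1.90 ± 0.25 in oligodendrocytes. It was -1.82 ± 0.25 in oligodendrocyte precursors, -1.45 ± 0.26 in microglia, -1.91 ± 0.30 in brain endothelial cells and -2.08 ± 0.36 in pericytes. The median gene stayed near 0 in each of these fits, between -0.01 and 0.03.

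Many genes shared the pattern that defined Ubb here. The share of all tested genes whose 3 aged AAV-EGFP libraries lay above the other 6 was 6.94% in excitatory and 5.51% in inhibitory neurons, 5.94% in astrocytes and 9.07% in oligodendrocytes. In the smaller classes it was 4.41% in oligodendrocyte precursors, 5.21% in microglia, 6.09% in brain endothelial cells and 4.9% in pericytes. By size, Ubb was near the edge of the distribution. Between 0.972% (pericytes) and 4.07% (brain endothelial cells) of tested genes had a larger rise than Ubb in the ageing comparison, and between 0.131% (oligodendrocyte precursors) and 1.01% (brain endothelial cells) had a larger fall in the treatment comparison. Because the gene was selected on these contrasts, nothing is read from these shares.

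The share of nuclei with at least 1 Ubb UMI gave the same picture as the summed level. Without thinning it was 16.1% to 22.2% of excitatory neuron nuclei in the young AAV-EGFP libraries, 29.0% to 43.2% in aged AAV-EGFP and 14.8% to 22.8% in aged AAV-B3GNT3. In brain endothelial cells it was 23.8% to 28.3%, 41.4% to 52.5% and 13.4% to 24.6% in the same order of groups. Nuclei differ in depth, with library medians of 8427 to 12297 UMIs in excitatory neurons against 1388 to 2331 in brain endothelial cells. Each nucleus was therefore thinned to 1000 UMIs, and shallower nuclei were left out. The expected share was then 1.81% to 2.73%, 3.79% to 5.78% and 1.47% to 2.496% in excitatory neurons, with 11, 2 and 7 nuclei left out per group. In oligodendrocytes it was 5.22% to 7.47%, 12.3% to 21.0% and 3.89% to 6.36%, with 60, 702 and 187 nuclei left out. Brain endothelial cells gave 11.1% to 14.2%, 25.1% to 35.6% and 8.36% to 11.8%, with 8, 26 and 15 nuclei left out. At equal depth the 3 aged AAV-EGFP libraries were above the other 6 in these 3 classes. Most nuclei held at most 1 Ubb UMI, so the thinned share follows the CPM closely and is not a separate check. The highest count of Ubb UMIs in a single nucleus of any class was 13. No brain cell class is known to lack Ubb, so no share from a class without the gene could be set beside these values.

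Within classes the pattern was spread over clusters. Of the 19 clusters, 16 held at least 10 nuclei of every library, and the aged AAV-EGFP mean was above both other means in all 16. In 15 of them every aged AAV-EGFP library was above every young one, and in 15 it was above every aged AAV-B3GNT3 one. With finer clusters, 26 of 28 held enough nuclei, the mean was highest in all 26, and the libraries did not overlap in 23 against young AAV-EGFP and in 23 against aged AAV-B3GNT3. Among the finer clusters, the one named choroid plexus epithelial cell, whose cells secrete cerebrospinal fluid, had group means of 110.5 CPM for young AAV-EGFP, 381 CPM for aged AAV-EGFP and 73.6 CPM for aged AAV-B3GNT3. The brain endothelial cluster of the main clustering had 150, 365 and 106 CPM on the same raw totals, in the same order of groups. The choroid plexus cluster was named on 4 of 6 markers and had 966 nuclei, with a median of 813.5 UMIs and 261 Ubb UMIs in sum. The aged AAV-EGFP libraries gave 62, 50 and 40 of the choroid plexus nuclei.

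**Figure D2:**
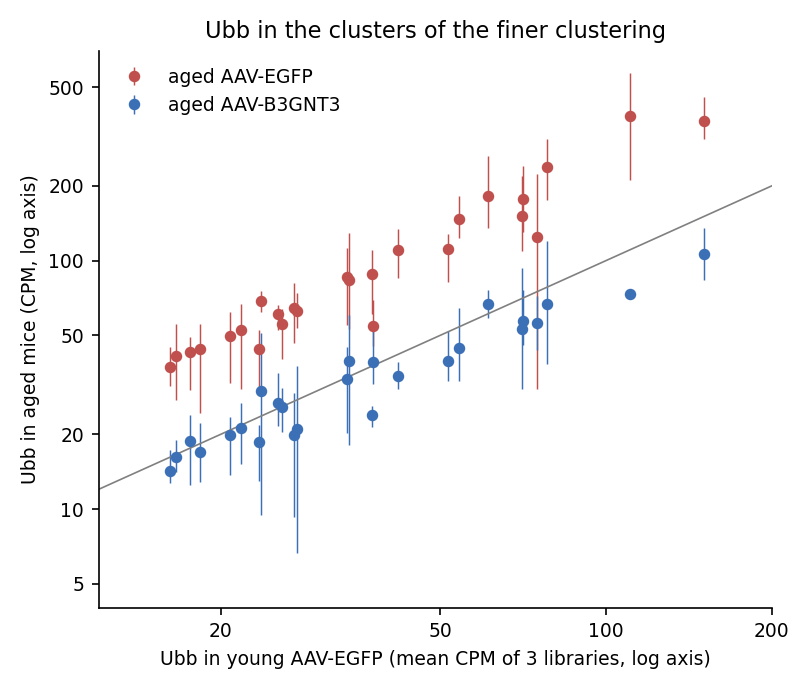
Ubb in each of the 26 finer clusters with at least 10 nuclei per library, as the mean over the 3 young AAV-EGFP libraries (x axis, CPM, log axis) against the mean in aged AAV-EGFP or aged AAV-B3GNT3 (y axis, CPM, log axis), with lines from the lowest to the highest library and a grey line of equality. All aged AAV-EGFP means lie above the line, while the aged AAV-B3GNT3 means lie around it.

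Oligodendrocyte nuclei split largely by group in the finer clustering, which was run without integration of the libraries. A cluster of 7222 nuclei held 6235 from aged AAV-EGFP, 937 from aged AAV-B3GNT3 and 50 from young AAV-EGFP mice. In it Ubb was 130 to 242 CPM in aged AAV-EGFP and 45.9 to 76.3 in aged AAV-B3GNT3, while the young range of 40.6 to 121 rests on 8 UMIs. The second oligodendrocyte cluster had 527 of its 6851 nuclei from aged AAV-EGFP, and Ubb was 43.0 to 59.8 CPM in the young AAV-EGFP libraries, 81.9 to 128 in those of aged AAV-EGFP and 32.9 to 52.1 in those of aged AAV-B3GNT3. In the third, of 6220 nuclei, the aged AAV-EGFP libraries spread from 30.3 to 223 CPM on 99 UMIs and overlapped both other groups. The aged AAV-EGFP libraries were therefore above the others within 2 of the 3 clusters. Libraries of 1 group also differed, as the aged AAV-B3GNT3 libraries gave 487, 88 and 362 nuclei of the first cluster. Whether the split follows the group or the library was not tested.

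Other RNA shares moved with Ubb. The summed share of 79 ribosomal protein genes was higher in every aged AAV-EGFP library than in every young one in all 8 classes, for example 0.741% to 0.946% of UMIs against 0.306% to 0.474% in brain endothelial cells and 0.181% to 0.278% against 0.118% to 0.139% in oligodendrocytes. It was lower again in aged AAV-B3GNT3 without overlap in 7 classes, with 0.306% to 0.421% and 0.122% to 0.144% in the same 2 classes, and overlapped in excitatory neurons. A list of 10 abundant short cytoplasmic mRNAs (Actb, Eef1a1 and Fth1 among them) behaved alike in 6 classes. In oligodendrocytes it took 0.0972% to 0.0997% of UMIs in the young AAV-EGFP libraries, 0.147% to 0.253% in those of aged AAV-EGFP and 0.0962% to 0.112% in those of aged AAV-B3GNT3. The 5 nuclear long noncoding RNAs of a further list that the tables hold, Malat1 and Meg3 among them, were also higher in sum in 6 classes without overlap and overlapped the young libraries in oligodendrocyte precursors and brain endothelial cells. With treatment the sum was lower without overlap in all 8 classes. In oligodendrocytes they took 5.14% to 5.56% of UMIs in aged AAV-EGFP against 3.77% to 4.52% in young AAV-EGFP and 3.75% to 4.10% in aged AAV-B3GNT3. The median log2 fold change of these 5 genes in oligodendrocytes was nevertheless -0.69 with ageing, so the sum and the median differed in sign. The share of the 13 mitochondrial genes was at most 0.169% in any class and library, and its aged AAV-EGFP libraries overlapped the young ones in all 8 classes. With treatment it was lower without overlap in 4 classes, namely oligodendrocytes (0.00684% to 0.00917% in aged AAV-B3GNT3 against 0.0110% to 0.0207% in aged AAV-EGFP), oligodendrocyte precursors (0.00456% to 0.00553% against 0.00698% to 0.0113%), brain endothelial cells (0.0825% to 0.101% against 0.122% to 0.169%) and pericytes (0.0146% to 0.0261% against 0.0379% to 0.0496%). The median depth of oligodendrocyte nuclei was 1532.5 to 1887 UMIs in aged AAV-EGFP against 2144.5 to 2495.5 in young AAV-EGFP and 1712 to 2415 in aged AAV-B3GNT3. Depth was also lower with ageing without overlap in microglia (1270 to 1595 against 1837 to 2126 UMIs) and pericytes (1494 to 1749 against 1922 to 2360 UMIs). In pericytes it was higher with treatment (1879.5 to 2236.5 UMIs), again without overlap, and every other comparison of depth overlapped. The part of these shares and depths in the Ubb difference was not tested.

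**Figure D3:**
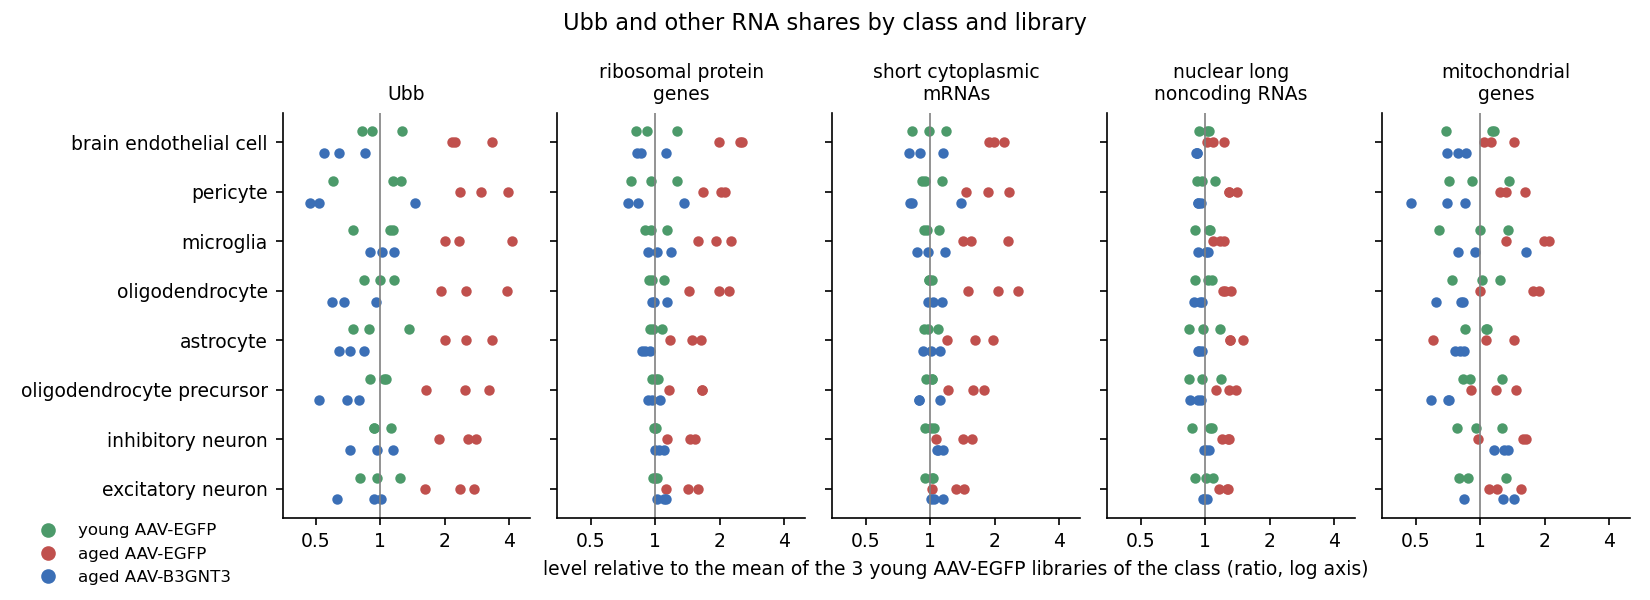
Ubb and 4 RNA shares in each library, divided by the mean of the 3 young AAV-EGFP libraries of the same class (x axis, ratio, log axis), in 8 classes (y axis) and coloured by group. Red aged AAV-EGFP points lie right of 1 for Ubb, ribosomal protein genes and short cytoplasmic mRNAs, with a smaller shift for nuclear long noncoding RNAs and overlap with the young libraries for mitochondrial genes, whose aged AAV-B3GNT3 points lie lower than the aged AAV-EGFP points without overlap in 4 classes.

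Free RNA, which leaks from broken cells into the droplets, can add Ubb UMIs to any nucleus. From 3 myelin genes in neurons, or 3 neuronal genes in the other classes, its share of the Ubb UMIs was estimated at 12.9% to 33.5% in excitatory neurons, 15.3% to 29.2% in oligodendrocytes and 5.96% to 13.4% in brain endothelial cells over the 9 libraries. In excitatory neurons it was lower in aged AAV-EGFP (12.9% to 22.7%) than in young AAV-EGFP (27.7% to 33.5%). The profile of free RNA was taken from all barcodes of the same library, which are called nuclei, and not from empty droplets. It held the same group difference in Ubb (43.9 to 74.2 CPM in aged AAV-EGFP, 19.5 to 31.3 in the other libraries). Of all UMIs, free RNA was estimated at 37.7% to 53.3% in brain endothelial cells and up to 71.3% in oligodendrocytes. After subtraction of the estimate, the Ubb fold changes moved by less than the spread between replicates in all 8 classes and both comparisons. Whether free RNA makes the Ubb difference was not tested, because the subtracted profile carries it too. For microglia of 1 library the estimate of free RNA over all genes reached its limit of 100%, so it is coarse in small classes.

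Rps27a, whose product is ubiquitin fused to a protein of the small ribosomal subunit (chromosome 11, 29545846 to 29548109, minus strand), rose with ageing in all 4 classes that were tested across genes. In oligodendrocytes it had 9.37, 8.87 and 9.28 CPM in the young AAV-EGFP libraries, 19.1, 28.8 and 24.8 in those of aged AAV-EGFP and 8.66, 11.1 and 10.1 in those of aged AAV-B3GNT3. The aged AAV-EGFP libraries did not overlap either other group. The log2 fold change was 1.40 ± 0.20 (adjusted p = 0.0072, edgeR quasi-likelihood test with Benjamini-Hochberg adjustment over all tested genes) for ageing and -1.28 ± 0.19 (adjusted p = 0.0151) for treatment. Its ageing fold changes in the 3 other classes were 0.92 ± 0.20 in excitatory and 1.22 ± 0.29 in inhibitory neurons and 0.84 ± 0.25 in astrocytes, with adjusted p between 0.0154 and 0.0458. In the treatment comparison these classes gave -0.63, -0.95 and -0.81, with adjusted p of 0.0905, 0.115 and 0.0888, which missed the threshold of 0.05. Subtracting the free RNA estimate ended the ageing call of Rps27a in inhibitory neurons, astrocytes and oligodendrocytes (adjusted p = 0.072, 0.18 and 0.11) and the treatment call in oligodendrocytes (adjusted p = 0.23). Over all genes the subtraction left 153, 3 and 2 ageing calls in these classes, against 586, 1476 and 2310 before. In oligodendrocytes it left 0 treatment calls, against 521, so the losses are not particular to Rps27a. The ageing call of Rps27a in oligodendrocytes held without any 1 library. Its other calls were each lost without the second aged AAV-EGFP library, with adjusted p for ageing of 0.067 in excitatory neurons, 0.14 in inhibitory neurons and 0.15 in astrocytes, and for treatment of 0.067 in oligodendrocytes. Without the third aged AAV-EGFP library the 3 ageing calls were lost as well (adjusted p = 0.053, 0.13 and 0.16), and so they were without the third young AAV-EGFP library (0.068, 0.099 and 0.087). The first young library also decided the call in inhibitory neurons (0.11) and astrocytes (0.12), and the second young (0.11) and first aged AAV-B3GNT3 (0.05) libraries that in astrocytes. The treatment call in oligodendrocytes was also lost without the first (0.087) or second (0.073) aged AAV-B3GNT3 library. Without the first aged AAV-EGFP library, Rps27a passed for treatment in excitatory neurons (0.036) and astrocytes (0.022).

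**Figure D4:**
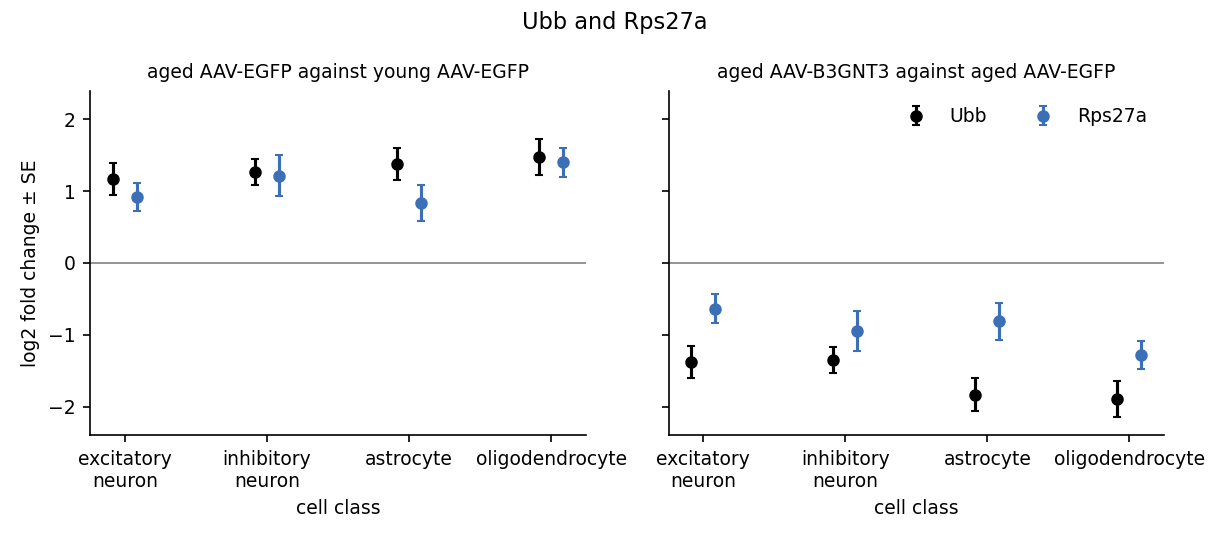
Log2 fold change ± SE of Ubb (black) and Rps27a (blue) in 4 classes, for aged against young AAV-EGFP (left) and aged AAV-B3GNT3 against aged AAV-EGFP (right). All points are above 0 on the left and below 0 on the right.

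Rps27a was called among many other genes. With ageing, 7.39% of tested genes were called higher in excitatory and 2.35% in inhibitory neurons, 4.61% in astrocytes and 9.22% in oligodendrocytes, while 6.7%, 1.74%, 7.09% and 8.2% were called lower. With treatment, 0.827%, 0.0906%, 1.46% and 0.807% were called higher in the same order, and 1.36%, 0.467%, 2.41% and 3.12% lower. Without Ubb, the ubiquitin system lists held 64 genes. With ageing 9 of 61 tested were higher and 4 lower in excitatory, and 5 and 2 of 57 in inhibitory neurons, 8 and 2 of 56 in astrocytes, and 11 and 4 of 57 in oligodendrocytes. The treatment comparison had 0 higher and 3, 1, 7 and 7 lower in these classes. The median log2 fold change of the lists together was between 0.02 and 0.09 with ageing and between -0.15 and -0.09 with treatment, next to -0.0041 to 0.0213 and 0.0108 to 0.0317 over all tested genes. With free RNA subtracted, 1 of these genes was called with ageing in inhibitory neurons and none in astrocytes or oligodendrocytes by edgeR, where 18, 18 and 12 had an unadjusted p under 0.05. With treatment the subtraction left 1 call, that of Fau in excitatory neurons, and 0 in the 3 other classes (13, 13 and 11 at an unadjusted p under 0.05). Over all genes it left 153, 3 and 2 ageing calls in inhibitory neurons, astrocytes and oligodendrocytes, against 586, 1476 and 2310 before. With treatment it left 81, 9, 3 and 0 in the 4 classes, against 370, 80, 488 and 521. Nothing is therefore read from these losses about the lists. Without the second aged AAV-EGFP library edgeR called 0 genes of the lists with treatment in all 4 classes (11, 9, 10 and 13 unadjusted). Without the second aged AAV-B3GNT3 library it again called 0 (13, 14, 11 and 11 unadjusted). Without the first aged AAV-B3GNT3 library it called 0, 0, 1 and 0, and without the third young library 0 in both neuron classes. Over all genes, excitatory neurons had 0 treatment calls without the second aged AAV-EGFP library, against 370 with all libraries. They had 5 and 4 without the second and the first aged AAV-B3GNT3 library, so nothing is read from these losses about the lists. Most of the ageing calls named in the following paragraphs were lost without the second aged AAV-EGFP or the third young library. No single library ended those of Fau and Map1lc3a in oligodendrocytes, Uchl1 in astrocytes, Ube2b in excitatory neurons, Stip1 in excitatory neurons and oligodendrocytes, or Hsph1 in these 2 classes and astrocytes.

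Few of the enzymes that activate and carry ubiquitin were called in the ageing comparison. None of the E1 and E2 genes was called higher in any of the 4 classes, and 3 of 32, 2 of 29, 0 of 29 and 3 of 29 were lower in excitatory neurons, inhibitory neurons, astrocytes and oligodendrocytes. Over all tested genes 7.39%, 2.35%, 4.61% and 9.22% were called higher and 6.7%, 1.74%, 7.09% and 8.2% lower, so lists of this size hold few calls at the general share. For the astrocytes, 6 passed edgeR at an unadjusted p under 0.05 and DESeq2 called 0. Uba6, the second E1 enzyme, fell in inhibitory neurons (-0.39 ± 0.10, adjusted p = 0.0481) and oligodendrocytes (-0.43 ± 0.13, adjusted p = 0.0348). It was also the remaining call in excitatory neurons (-0.39 ± 0.09), and Ube2r2 that in oligodendrocytes (-0.39 ± 0.12), both named after their values were seen. Ube2b, an E2 enzyme that acts with Rad18 at damaged DNA, fell in excitatory neurons (-0.69 ± 0.11, adjusted p = 0.00625) and inhibitory neurons (-0.62 ± 0.13, adjusted p = 0.0272). Ube2ql1 fell in excitatory neurons (-0.66 ± 0.16, adjusted p = 0.0244), and Ube2w, an E2 that modifies protein N termini, fell in oligodendrocytes (-0.53 ± 0.12, adjusted p = 0.0139). With treatment, edgeR called 0 of these genes in each class, with 6, 7, 3 and 3 at an unadjusted p under 0.05 and 1, 0, 0 and 0 called by DESeq2. Of all tested genes 0.827%, 0.0906%, 1.46% and 0.807% were called higher with treatment and 1.36%, 0.467%, 2.41% and 3.12% lower.

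Of the 9 enzymes that cut precursors or recycle ubiquitin, Uchl1, an abundant neuronal hydrolase that frees ubiquitin from short adducts, rose with ageing in astrocytes by 1.16 ± 0.23 (adjusted p = 0.00643). Free RNA was estimated at 30.4% to 47.3% of astrocyte UMIs over the 9 libraries, and with it subtracted the call of Uchl1 was lost (log2 fold change 1.81, adjusted p = 0.15). Its fold change was larger after the subtraction than before. Over all genes the subtraction left 3 ageing calls in astrocytes, against 1476 before, so the loss is not particular to Uchl1. Usp7, a deubiquitinase of the p53 pathway, fell with ageing in astrocytes (-0.50 ± 0.14, adjusted p = 0.0354). The list had 1, 1, 1 and 2 members higher and 0, 0, 1 and 0 lower with ageing in excitatory neurons, inhibitory neurons, astrocytes and oligodendrocytes. For 9 genes, the shares of all tested genes called higher (7.39%, 2.35%, 4.61% and 9.22%) come to less than 1 call in each class, so nothing is read from these counts about the list. With treatment 1 member was lower in astrocytes and 1 in oligodendrocytes, in both cases Uchl1, which is named here after its values were seen (log2 fold changes of -1.06 ± 0.23 and -1.27 ± 0.22). Of all tested genes 2.41% and 3.12% were called lower with treatment in these 2 classes. In the neuron classes edgeR called 0, with 3 and 2 at an unadjusted p under 0.05 and 0 called by DESeq2.

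Of the ubiquitin system lists, the ubiquitin-like modifiers held many of the calls. With ageing 5 of 17, 3 of 16, 5 of 16 and 6 of 16 rose in excitatory neurons, inhibitory neurons, astrocytes and oligodendrocytes, and 1, 0, 1 and 1 fell. With treatment 3, 1, 5 and 4 fell and none rose. The share of all tested genes called higher with ageing was 7.39%, 2.35%, 4.61% and 9.22%, and that called lower with treatment 1.36%, 0.467%, 2.41% and 3.12%. Their median log2 fold change was 0.29, 0.30, 0.57 and 0.55 with ageing and -0.31, -0.29, -0.46 and -0.37 with treatment, while the median of all tested genes was between -0.0041 and 0.0317. Fau, a ubiquitin-like protein fused to a ribosomal protein as the product of Rps27a is, rose by 1.69 ± 0.21 in oligodendrocytes (adjusted p = 0.0062) and by 1.18 ± 0.26 in inhibitory neurons (adjusted p = 0.0336). With treatment Fau changed by -1.54 ± 0.20 in oligodendrocytes (adjusted p = 0.0134), -1.17 ± 0.27 in astrocytes (adjusted p = 0.0303) and -1.04 ± 0.18 in excitatory neurons (adjusted p = 0.0339). Subtracting free RNA ended the treatment calls of Fau in oligodendrocytes and astrocytes (adjusted p = 0.22 and 0.19), and all 3 were lost without the second aged AAV-EGFP library (0.053, 0.14 and 0.17). Over all genes the subtraction left 81, 9, 3 and 0 treatment calls in the 4 classes, against 370, 80, 488 and 521 before. Map1lc3a, a modifier that is joined to lipids of the autophagosome, rose by 1.22 ± 0.22 in excitatory neurons (adjusted p = 0.00919) and by 1.56 ± 0.24 in oligodendrocytes (adjusted p = 0.0072). It was lower with treatment in all 4 classes, with log2 fold changes of -1.20, -1.16, -1.25 and -1.32 and adjusted p of 0.0364, 0.0486, 0.0247 and 0.0177. All 4 treatment calls of Map1lc3a were lost with free RNA subtracted (adjusted p = 0.051, 0.098, 0.17 and 0.26) and without the second aged AAV-EGFP library (0.17, 0.24, 0.11 and 0.085), and that in inhibitory neurons also with RLE size factors (0.05, just outside the threshold) and the replicate block (0.052). Map1lc3b of the same family rose in astrocytes (1.05 ± 0.25, adjusted p = 0.0152).

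Ubl5, which takes part in splicing and is not joined to targets, rose by 1.03 ± 0.23 in excitatory neurons (adjusted p = 0.0164) and by 1.09 ± 0.22 in inhibitory neurons (adjusted p = 0.0283). With treatment it changed by -0.99 ± 0.23 in excitatory neurons (adjusted p = 0.0487) and by -1.47 ± 0.29 in astrocytes (adjusted p = 0.0196), and both calls of Ubl5 were lost with free RNA subtracted (0.066 and 0.12). Over all genes the subtraction left 81 and 3 treatment calls in these classes, against 370 and 488 before. Ubl3, a membrane-anchored modifier, was the one member that fell with ageing, by 0.51 on the log2 scale in excitatory neurons (adjusted p = 0.0136) and astrocytes (adjusted p = 0.0338) and by 0.70 in oligodendrocytes (adjusted p = 0.0189).

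Most called heat shock genes, a group that Ubb is known to join in the stress response, fell with ageing while Ubb was higher. Of the tested members 0 of 18, 0 of 16, 1 of 15 and 0 of 16 rose and 5, 4, 2 and 6 fell in excitatory neurons, inhibitory neurons, astrocytes and oligodendrocytes. The share of all tested genes called lower was 6.7%, 1.74%, 7.09% and 8.2%, which for the 15 genes in astrocytes is about 1 call. The list medians were -0.16, -0.21, -0.05 and -0.36. Hsph1, a nucleotide exchange factor of Hsp70, was lower in all 4 classes, with -1.18 ± 0.15 (adjusted p = 0.00292) in excitatory neurons, -1.19 ± 0.17 (adjusted p = 0.0171) in inhibitory neurons, -1.05 ± 0.23 (adjusted p = 0.0104) in astrocytes and -1.28 ± 0.27 (adjusted p = 0.0114) in oligodendrocytes. Stip1, a cochaperone that links Hsp70 and Hsp90, fell in excitatory neurons (-0.68 ± 0.12, adjusted p = 0.0082), inhibitory neurons (-0.77 ± 0.14, adjusted p = 0.0237) and oligodendrocytes (-0.94 ± 0.19, adjusted p = 0.0108). Chordc1, an Hsp90 cochaperone, fell in excitatory neurons (-0.40 ± 0.11, adjusted p = 0.0325) and astrocytes (-0.56 ± 0.15, adjusted p = 0.0312). Dnaja1 fell in inhibitory neurons (-0.53 ± 0.11, adjusted p = 0.0272), and Dnajb1, a cochaperone that heat shock induces strongly, fell in oligodendrocytes (-1.32 ± 0.35, adjusted p = 0.0257). Cryab, a small heat shock protein abundant in glia, was the one riser, by 0.90 ± 0.26 in astrocytes (adjusted p = 0.0375). With free RNA subtracted, Hsph1 passed in both neuron classes and not in astrocytes or oligodendrocytes (adjusted p = 0.15 and 0.17), where edgeR then called 0 heat shock genes (3 and 7 at an unadjusted p under 0.05). Over all genes 3 and 2 ageing calls were left in astrocytes and oligodendrocytes, against 1476 and 2310 before. The loss is thus not particular to heat shock genes.

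With treatment, 1 heat shock gene rose and 1 fell in excitatory neurons, and 0, 3 and 2 fell in inhibitory neurons, astrocytes and oligodendrocytes. Of all tested genes 0.827% were called higher in excitatory neurons, and 1.36%, 0.467%, 2.41% and 3.12% lower in the 4 classes, which for a list of this size is less than 1 call in each class. In inhibitory neurons edgeR called none, with 3 at an unadjusted p under 0.05 and 2 called by DESeq2. Cryab fell in excitatory neurons (-1.34 ± 0.27, adjusted p = 0.0403), astrocytes (-1.62 ± 0.28, adjusted p = 0.0151) and oligodendrocytes (-1.39 ± 0.28, adjusted p = 0.0259). Hspa8, the constitutive Hsp70, fell in astrocytes (-0.98 ± 0.23, adjusted p = 0.031) and oligodendrocytes (-0.86 ± 0.20, adjusted p = 0.0362), and Hsp90ab1, the constitutive Hsp90, fell in astrocytes (-0.80 ± 0.19, adjusted p = 0.0331). Hsph1 was higher with treatment in excitatory neurons (0.62 ± 0.14, adjusted p = 0.05, just inside the threshold). None of these treatment calls held with free RNA subtracted, where edgeR called 0 heat shock genes in excitatory neurons, astrocytes and oligodendrocytes (5, 6 and 3 at an unadjusted p under 0.05) and Cryab had an adjusted p of 0.091, 0.12 and 0.26. Over all genes 81, 3 and 0 treatment calls were left in these classes, against 370, 488 and 521 before. The count of heat shock genes was also 0 in these classes without the second aged AAV-EGFP library (4, 5 and 4 unadjusted), the first aged AAV-B3GNT3 library (3, 6 and 4) or the second (4, 6 and 5). Over all genes, excitatory neurons had 0, 4 and 5 treatment calls without these libraries. The losses are thus not particular to heat shock genes.

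Likeness to Ubb across genes was Pearson's r of log2 CPM with Ubb after the mean of each class was removed, over 36 points (4 classes in 9 libraries) and 11614 genes tested in all 4 classes. The points share libraries and the same group contrast that selected Ubb, so r is a description. Among the 10 highest were Ndufa4 (0.971), Eif1 (0.968), Oaz1 (0.957), Cox8a (0.957), Chchd2 (0.955), Ndufb9 (0.955), Rpl32 (0.954), H3f3b (0.954) and Ppia (0.952). They encode parts of the respiratory chain (Ndufa4, Ndufb9, Cox8a), a mitochondrial regulator (Chchd2), a translation initiation factor (Eif1), the inhibitor of ornithine decarboxylase (Oaz1), a ribosomal protein (Rpl32), a replacement histone (H3f3b) and cyclophilin A (Ppia). These genes stayed at an r of 0.92 or more when any 1 library was left out. The median r was 0.867 over 75 ribosomal protein genes, 0.855 over the 10 short cytoplasmic mRNAs and 0.64 over 16 ubiquitin-like modifiers. It was 0.02 over 29 E1 and E2 enzymes, -0.23 over 15 heat shock genes and -0.11 over all genes. Rps27a had an r of 0.882, Cryab of 0.864 and Hsph1 of -0.65. H3f3b had log2 fold changes of 1.13, 1.36, 1.07 and 2.03 with ageing in excitatory neurons, inhibitory neurons, astrocytes and oligodendrocytes, next to 1.16, 1.27, 1.38 and 1.48 for Ubb.

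The Ubb fold changes kept their direction under 16 other ways of processing the counts in each class. The plot of alternatives shows them beside the values given above, and the widest spread was in pericytes, where the third aged AAV-B3GNT3 library decided part of the size. Without it the treatment fold change was -2.68 instead of -2.08.

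**Figure D5:**
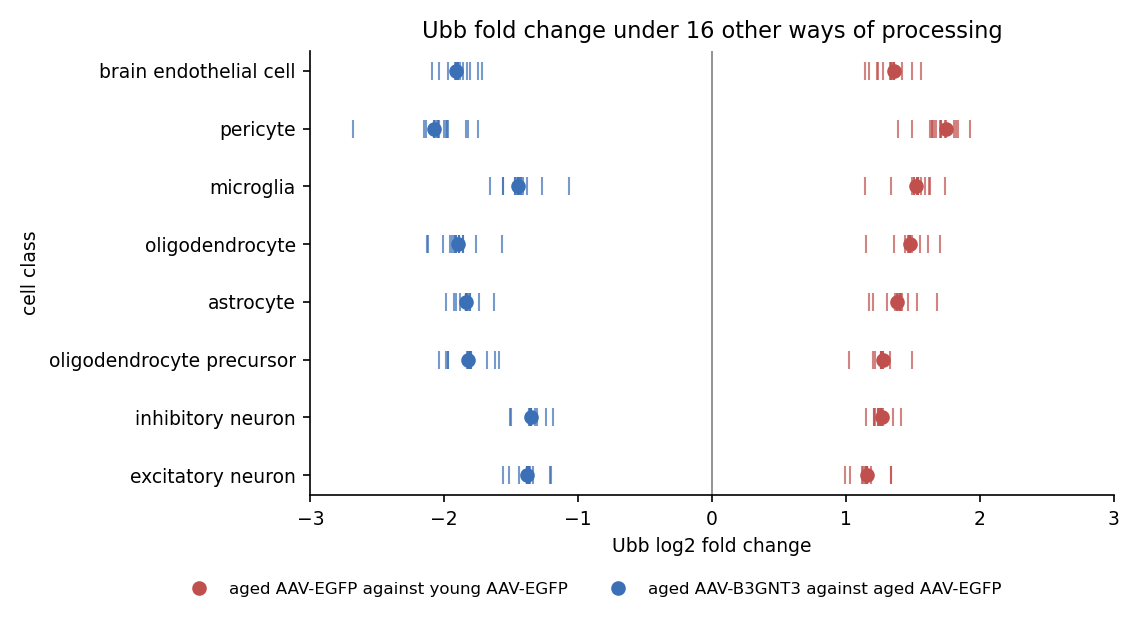
Ubb log2 fold change in 8 classes, with a dot for the value reported and a tick for each of 16 other settings, in red for aged against young AAV-EGFP and in blue for aged AAV-B3GNT3 against aged AAV-EGFP. All red marks lie right of 0 and all blue marks left of 0.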

How the data were processed

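The deposited values were UMI counts per gene and nucleus, made by the authors with Cell Ranger (version 4.0.0 in the submitters' processing notes, 7.2.0 in the file headers) on mm10 and limited to called nuclei. Whether introns were counted is not given in the sources used here. Nuclei with 200 to 5000 genes and up to 10% mitochondrial UMIs were kept, simulated doublets were used to mark 0.8% of nuclei per 1000 barcodes, and the rest were clustered (scanpy 1.11.5, 2000 variable genes, 15 components, 20 neighbours, Leiden resolution 0.3). No integration across libraries was applied, whereas the paper integrated its samples. Clusters were named from marker lists where at least 3 markers passed. A rule that leaves clusters with a mean doublet score above 0.5 unnamed was set after the clusters were seen. Counts were summed per class and library, which are separate mice, and fitted with edgeR 4.0.16 (R 4.3.3, TMM, filterByExpr at 10 counts, quasi-likelihood, all 9 libraries in 1 fit per class). DESeq2 1.42.0 was an alternative. The number of UMIs limits the precision of small classes, and intervals from 3 libraries are wide. The fits were also tried on simulated counts, and the outcome is not reported here. Ubb and all gene lists were chosen with earlier results of these data known. Named genes were Ubb, the other precursors, in each class and comparison up to 3 called rises and 3 called falls of each family, and the 10 genes most like Ubb. Some genes that this rule names are not reported here. Whether libraries of the same replicate number were processed together is not given in the sources used here. Deviations of same-numbered libraries correlated from -0.21 to 0.28, and no differently numbered pairs were set beside them. In each group the second library had the most barcodes (10264, 10139 and 10137). It also had the lowest median depth of oligodendrocyte nuclei (2144.5, 1532.5 and 1712 UMIs). Libraries of 1 group differed by 14.4 to 57.1 times the sampling variance, so none was a copy of another. That the libraries are separate mice is taken from the paper's description and was not tested. The alternatives were DESeq2, other size factors, no count filter, a replicate block, no doublet removal, finer clusters (resolution 1), free RNA subtraction and each library left out.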

Additional observations from a re-analysis of the deposited data

How the results depend on the processing

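The Ubb fold changes kept their direction in all 8 classes under all 16 alternatives and moved by less than the spread between replicates. With 1 library left out the direction could not turn, because every aged AAV-EGFP library lay above all libraries of the other groups. The spread also roughly bounds the shift that leaving out 1 of 3 libraries can cause, so neither outcome is a check there. One alternative, free RNA subtraction, used a profile of the called nuclei that carries the Ubb difference, so it did not test whether free RNA makes that difference. The Ubb fold changes with 1 library left out ranged for ageing from 0.992 to 1.34 in excitatory and 1.15 to 1.41 in inhibitory neurons. They ranged for ageing from 1.17 to 1.68 in astrocytes and 1.15 to 1.70 in oligodendrocytes. Counts of called genes were less stable, and the cause was not tested. In the order excitatory neurons, inhibitory neurons, astrocytes and oligodendrocytes, edgeR called 13, 7, 10 and 15 ubiquitin system genes with ageing and 3, 1, 7 and 7 with treatment. It called 5, 4, 3 and 6 heat shock genes with ageing and 2, 0, 3 and 2 with treatment. Over all genes it called 2384, 586, 1476 and 2310 with ageing and 370, 80, 488 and 521 with treatment. The alternative values that follow differed from these by more than 1.5 times, apart from the ranges with 1 library left out, which also hold values closer to them.

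With free RNA subtracted, ubiquitin system calls with ageing were 1 in inhibitory neurons and 0 in astrocytes and oligodendrocytes (18, 18 and 12 at an unadjusted p under 0.05), and with treatment 1, 0, 0 and 0 (17, 13, 13 and 11). Heat shock calls were 0 with ageing in astrocytes and oligodendrocytes (3 and 7 unadjusted) and 0 with treatment in excitatory neurons, astrocytes and oligodendrocytes (5, 6 and 3). All-gene calls were 153, 3 and 2 with ageing in inhibitory neurons, astrocytes and oligodendrocytes, and 81, 9, 3 and 0 with treatment, the last with 1247 unadjusted. With DESeq2, treatment gave 9 and 3 ubiquitin system genes in excitatory and inhibitory neurons, 2 heat shock genes in inhibitory neurons, and 1323, 373 and 855 genes in excitatory neurons, inhibitory neurons and oligodendrocytes. Without a count filter, treatment gave 7 and 6 ubiquitin system genes in the neuron classes, 2 and 4 heat shock genes in inhibitory neurons and oligodendrocytes, and 1006, 822, 1260 and 1551 genes, while ageing gave 1547 genes in inhibitory neurons. RLE size factors gave 0 ubiquitin system genes (16 unadjusted) and 39 genes with treatment in inhibitory neurons. Without doublet removal, oligodendrocytes had 11 ubiquitin system genes and 1232 genes with treatment, and with finer clustering 999 genes.

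Whether the replicate numbers stand for libraries processed together is not known. With the replicate block, treatment gave 0 ubiquitin system genes in inhibitory neurons (15 unadjusted) and 1 heat shock gene in excitatory neurons, ageing gave 2 heat shock genes in inhibitory neurons, and the block gave 190 and 20 genes with treatment in the neuron classes and 194 with ageing in inhibitory neurons.

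With 1 library left out, ubiquitin system calls in the class order ranged with ageing from 1 to 17, 0 to 12, 3 to 17 and 7 to 23, and with treatment from 0 to 13, 0 to 3, 0 to 9 and 0 to 14. Heat shock calls ranged from 2 to 6, 0 to 4, 1 to 3 and 2 to 8, and from 0 to 3, 0 to 1, 0 to 3 and 0 to 3. All-gene calls ranged from 230 to 3690, 0 to 1444, 615 to 2359 and 808 to 3971, and from 0 to 1448, 0 to 487, 9 to 778 and 0 to 1684. Most of the lowest counts came without the second aged AAV-EGFP library, and the lowest ageing counts of ubiquitin system and all genes in excitatory neurons (1 and 230) came without the third young AAV-EGFP library. Small classes limit the depth, and the lowest Ubb count was 11 UMIs, in pericytes of 1 library.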
